A study of Homo sapiens with 6 samples.

Results

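Keratin-associated proteins are small structural proteins of the hair shaft, in which they form the matrix that surrounds and cross-links the keratin filaments. Their genes lie in clusters, most consist of a single exon, and they are known to be used in hair follicle cells late in hair formation. They fall into high glycine-tyrosine families and families rich in cysteine, called high sulfur here. The members described were all protein-coding genes on human chromosome 21 whose symbol starts with KRTAP, as RefSeq annotates them on GRCh38.p14. There were 49 members among 19974 protein-coding genes. They formed 2 clusters. The 21q22.1 cluster held 33 members over 757 kb (chr21:30281309-31038476), of which 22 belonged to the high glycine-tyrosine families KRTAP6, 7, 8, 19, 20, 21 and 22, and 11 to the high sulfur families KRTAP11, 13, 15, 23, 24, 25, 26 and 27. The 21q22.3 cluster held 16 members over 159 kb (chr21:44538981-44698044), all of the high sulfur families KRTAP10 and KRTAP12, and all lay inside TSPEAR (chr21:44497893-44711572), a gene needed for hair and tooth development.

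CUT&RUN for LaminB1 was done on cells of HCT116, an established line from a human colorectal carcinoma. LaminB1 is a filament protein of the nuclear lamina, the layer under the nuclear membrane, and sequence near it is typically poor in active genes. In CUT&RUN an antibody directs a nuclease to cut out nearby DNA. The control cells, labelled wildtype, carried TOP2A fused to an auxin degron (mAID) and received no auxin, per the treatment protocol and the names of the deposited lists. The double loss cells carried the same TOP2A mAID allele and no TOP2B (TOP2B -/-), and received 500 uM auxin for 8 h to degrade TOP2A. TOP2A and TOP2B are the type II topoisomerases, which pass DNA strands through each other. Palbociclib (2 uM, 28 h) kept the cells of both groups in G1. There were 2 LaminB1 libraries per group. The labels do not say whether these came from separate cultures, and p-values then measure only the spread between libraries, which may be technical. Nor do they say how many clones each line stands for. Auxin, TOP2B genotype and cell line differed together between the groups and cannot be told apart.

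Each of the 4 LaminB1 libraries was deposited as a list of LaminB1 regions. The lists held 10771 to 13599 regions. They covered 594 Mb in control 1, 549 Mb in control 2, 610 Mb in double loss 1 and 622 Mb in double loss 2. In the same order they held 7374626, 7263458, 8151172 and 8351031 LaminB1 reads. Both double loss lists thus covered more of the genome than both control lists. The measure used below is the covered share, the percentage of a gene, a 10 kb step or a cluster that lay inside the regions of 1 list. TOP2A, TOP2B and LMNB1 were at 0% in all 4 lists. A covered share does not measure the loss of a gene or its protein, so these lists hold no check of the 2 targeted genes. The lists hold no expression values either, so the cell line was not checked against markers.

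Sequences of 250 bases before the annotated start, from RefSeq (GRCh38.p14), show how the promoters of the 2 clusters differed in base composition. The table held 30 of the 33 members of 21q22.1 and 15 of the 16 of 21q22.3. The sequences printed are those of the 2 members that lay under LaminB1 regions in both double loss lists and of the first and the last member of 21q22.3. Capitals mark TATAAA, the core letters of a TATA box, where it was found on the gene's strand, and each sequence runs 5′ to 3′ toward the gene.
KRTAP11-1 (chr21:30881581-30881830, minus strand): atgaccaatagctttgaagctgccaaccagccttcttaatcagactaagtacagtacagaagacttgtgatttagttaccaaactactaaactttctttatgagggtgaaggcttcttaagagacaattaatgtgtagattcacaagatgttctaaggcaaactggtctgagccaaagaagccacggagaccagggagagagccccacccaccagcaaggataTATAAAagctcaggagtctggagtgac
KRTAP19-8 (chr21:31038477-31038726, minus strand): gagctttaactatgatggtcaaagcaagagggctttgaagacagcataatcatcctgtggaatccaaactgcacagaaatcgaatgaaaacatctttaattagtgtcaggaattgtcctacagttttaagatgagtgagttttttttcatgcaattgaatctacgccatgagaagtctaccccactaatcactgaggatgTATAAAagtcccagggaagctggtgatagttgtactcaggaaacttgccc
KRTAP10-1 (chr21:44540196-44540445, minus strand): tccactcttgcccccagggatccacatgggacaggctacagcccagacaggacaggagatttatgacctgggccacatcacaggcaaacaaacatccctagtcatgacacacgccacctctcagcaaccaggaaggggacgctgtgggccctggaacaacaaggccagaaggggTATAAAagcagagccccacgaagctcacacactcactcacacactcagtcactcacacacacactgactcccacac
KRTAP10-12 (chr21:44696922-44697171, plus strand): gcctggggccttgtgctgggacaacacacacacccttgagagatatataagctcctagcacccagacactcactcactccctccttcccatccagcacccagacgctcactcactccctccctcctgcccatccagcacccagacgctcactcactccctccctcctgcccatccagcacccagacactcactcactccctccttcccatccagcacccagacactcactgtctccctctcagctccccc

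The promoters of KRTAP11-1 and KRTAP19-8 had GC contents of 43.2% and 40%, and those of KRTAP10-1 and KRTAP10-12 had 56% and 60.8%. TATAAA began 27 bases before the start in KRTAP11-1, 50 in KRTAP19-8 and 76 in KRTAP10-1. These letters did not occur in the window of KRTAP10-12. Across 21q22.1 the GC content ran from 28.4% to 44.4% with a median of 37%. Across 21q22.3 it ran from 44.4% to 62.4% with a median of 53.2%. The median over 15812 protein-coding promoters was 62.4%, so the 21q22.1 promoters lay far on the AT-rich side and met those of 21q22.3 only at 44.4%.

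**Figure D1:**
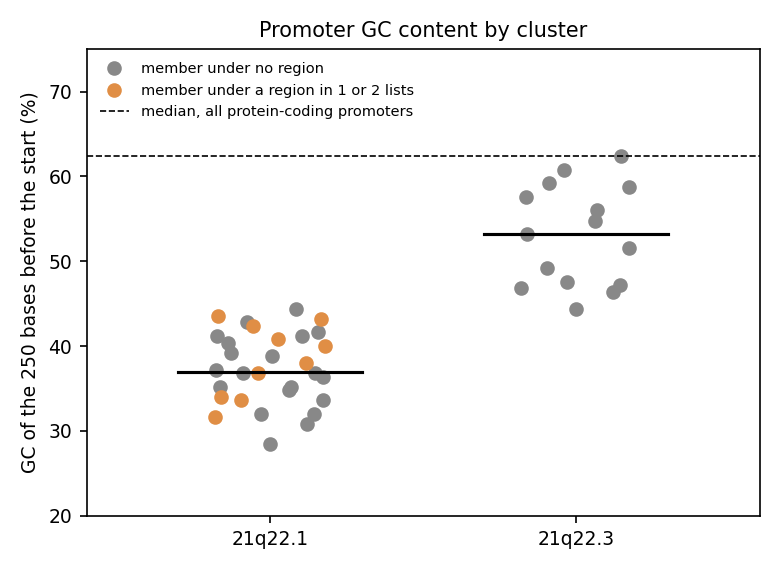
GC content (%) of the 250 bases before the start of each member, by cluster. Points are members, bars are cluster medians, the dashed line is the median over all protein-coding promoters (62.4%), and orange marks members under a LaminB1 region in 1 or 2 lists. The 21q22.1 points lie between 28.4% and 44.4%, and the orange points are spread among them.

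TATAAA on either strand was found in 22 of 30 promoters of 21q22.1 and 11 of 15 of 21q22.3, which is 73.3% in both, against 9.25% of all promoters of the same length. On the gene's strand and lying wholly within the window from 40 to 15 bases before the start, it was found in 11 (36.7%) and 7 (46.7%), against 3.64% of all. CTTTGA, core letters bound by LEF1, a factor of hair differentiation, occurred on either strand in 9 of 30 (30%) and 1 of 15 (6.67%), against 9.60% of all. TTTATNG, core letters bound by posterior HOX factors, occurred on either strand in 4 of 30 (13.3%) and 1 of 15 (6.67%), against 7.68% of all. TTTATNG can overlap a TATAAA on the opposite strand. Within 21q22.1, the 10 promoters of members under regions in at least 1 list had GC contents of 31.6% to 43.6% (median 39%), and 9 held TATAAA. The 20 of members under none had 28.4% to 44.4% (median 36.8%), and 13 held it. CTTTGA was in 5 of the 10 and 4 of the 20, and TTTATNG in 0 of the 10 and 4 of the 20. These are descriptions of few promoters, some of which share a region. The GC ranges of these sets overlapped almost wholly.

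The 2 clusters differed in every list. In the 21q22.1 cluster the covered share was 6.08% in control 1, 14.3% in control 2, 25.7% in double loss 1 and 29.2% in double loss 2. Both double loss libraries thus lay above both controls, with a gap wider than the spread within either group. The mean was 10.2% ± 5.79 (SD, n = 2) in the controls and 27.4% ± 2.49 (SD, n = 2) after double loss, a difference of 17.3 percentage points. In an exact two-sided permutation test this gave p = 0.333, the smallest value that 2 against 2 libraries allow. In the 21q22.3 cluster the covered share was 0% in all 4 lists, also with 100 kb added on each side. The difference between the clusters in double loss minus control was therefore 17.3 points as well (exact permutation p = 0.333). When only the upper 50% of each list by log2 fold was kept, the 21q22.1 difference was 0.46 points. Double loss 1 then lay below both controls. Its only region kept in the span was 18 kb long. Control 1 kept 1 region of 26 kb, and control 2 kept 3, the longest of 36 kb.

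**Figure D2:**
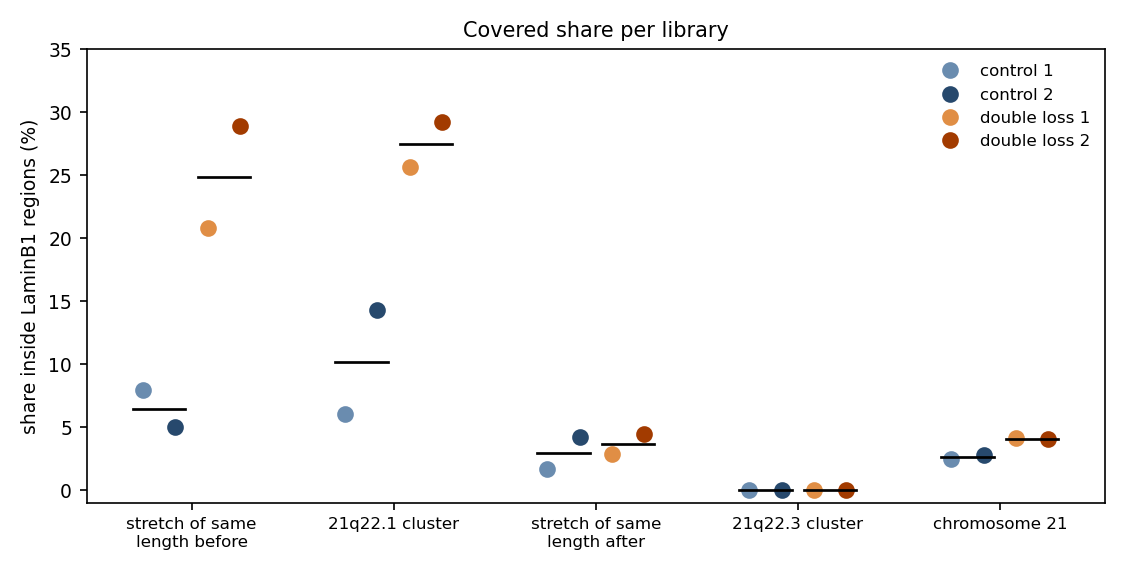
Covered share (%) per library for the 2 clusters, for stretches of equal length before and after 21q22.1, and for chromosome 21. Points are libraries and bars are group means. In 21q22.1 the double loss points (25.7% and 29.2%) lie above the control points (6.08% and 14.3%), and in 21q22.3 all 4 lie at 0%.

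The stretch next to 21q22.1 toward the centromere differed by a similar amount. This stretch of the same length (chr21:29524141-30281308) holds GRIK1, a glutamate receptor subunit gene, and was covered to 7.92%, 5.02%, 20.8% and 28.9% in control 1, control 2, double loss 1 and double loss 2. Its means were 6.47% ± 2.05 and 24.9% ± 5.73 (SD, n = 2 each), a difference of 18.4 points (exact permutation p = 0.333). The stretch of the same length beyond 21q22.1 (chr21:31038477-31795644) held 1.72%, 4.23%, 2.84% and 4.43%, where the groups overlapped and the difference was 0.66 points (exact permutation p = 0.667). Chromosome 21 from its first to its last gene or region was covered to 2.46%, 2.77%, 4.12% and 4.06%, a difference of 1.48 points (exact permutation p = 0.333). The GRIK1 side thus had a difference of the same size as the cluster, and the other side did not. On that other side TIAM1, SOD1 and SCAF4, which lie in the stretch, were at 0% in every list, as were HUNK and MIS18A beyond it.

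Among the nearest genes before the cluster, GRIK1 was covered to 14.9%, 9.43%, 36.5% and 48.1%. Its difference of 30.1 points did not pass limma's test (adjusted p = 0.219). BACH1, a transcription factor of the heme and oxidative stress response, was covered in double loss 2 only (50.9%). MAP3K7CL was covered in control 2 (18.2%) and double loss 2 (33.4%). CLDN17 and CLDN8, claudin genes of tight junctions that lie between GRIK1 and the first member, were at 0% in all lists.

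LaminB1 regions lay mainly in the distal part of the 21q22.1 cluster. Control 1 had 2 regions inside the span and control 2 had 5, covering 46 and 108 kb, and none began before position 30832001. Double loss 1 had 6 and double loss 2 had 8, covering 194 and 221 kb. The 2 longest regions, 74 kb in double loss 1 (chr21:30849001-30923000) and 76 kb in double loss 2 (chr21:30867001-30943000), lay where control 2 had 3 shorter regions of 11 to 33 kb and control 1 had none. Of the span, 61.4% (465 kb) was in no list, 17.4% in 1 double loss list alone and 4.69% in both double loss lists and no control. A further 9.38% was in 1 control and both double loss lists, and 3.17% in all 4. Sequence in 1 control and no double loss list made up 0.924%, and none was in both controls alone. These shares were not set against those of the genome, of which both double loss lists also covered more than both controls.

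**Figure D3:**
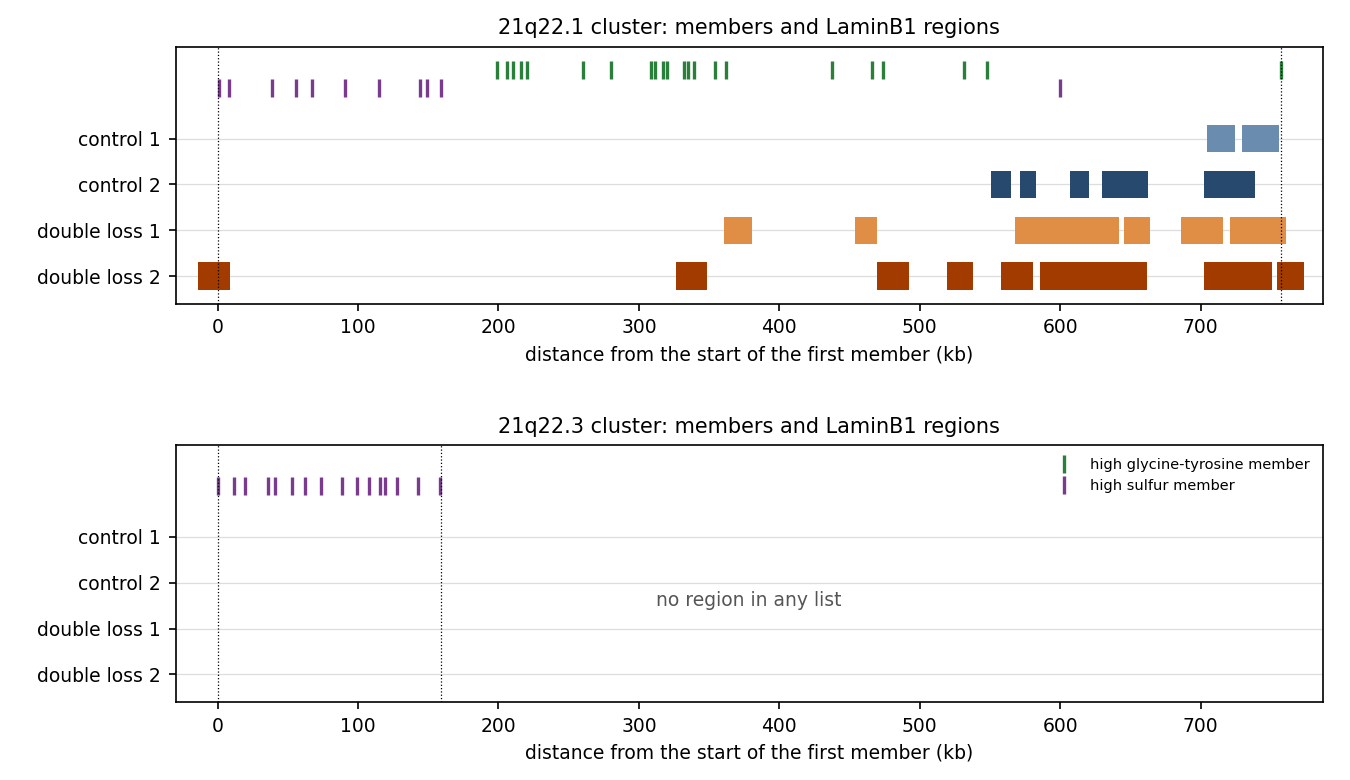
Map of the 2 clusters, with distance from the start of the first member (kb) on the horizontal axis and 1 row per library. Ticks are members by family type, bars are LaminB1 regions, and dotted lines mark the ends of each cluster. Regions of the controls lie only in the distal part of 21q22.1, those of the double loss libraries reach further toward its start, and 21q22.3 holds none.

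The genes themselves fill little of the cluster, so covered sequence was mostly between them. Members made up 17.8 kb of 21q22.1, or 2.35% of its span, and 16.5 kb, or 10.4%, of 21q22.3. In 21q22.1, 0 of 33 members lay under a region in control 1, 0 in control 2, 4 in double loss 1 and 9 in double loss 2. Altogether 11 of 33 were under a region in at least 1 list and 22 in none, while 15.3% of all 19974 protein-coding genes were covered in at least 1 list. Neighbouring members share regions, so the 11 are not independent. By role, these were 8 of 22 high glycine-tyrosine members and 3 of 11 high sulfur members. In each list a member was either wholly under a region (100%) or wholly outside (0%), so shares of single members took no value between these.

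KRTAP11-1 (chr21:30880644-30881580), a high sulfur gene that stands alone in the distal part, was at 0% in both controls and 100% in both double loss lists. KRTAP19-8 (chr21:31038159-31038476), a high glycine-tyrosine gene and the last of the cluster, had the same values. In limma's test on arcsine square root shares both differed by 100 percentage points (adjusted p = 0.0142), with no spread within either group. They entered that test only through the double loss lists, where they were covered, so the p-value adds little to the values themselves. The nearest control regions were 104 kb (control 1) and 6.42 kb (control 2) from KRTAP11-1. For KRTAP19-8 they were only 1.16 and 5.52 kb away, so a small shift of a region's edge could change its value. Neither passed the test with replicate number as a block (adjusted p = 0.273 for each).

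The test covered 3058 genes with a covered share above 0% in at least 1 list, among them 11 of the 49 members. All 11 were at 0% in both controls and entered only through a double loss list, so none of them could be called lower. It called 1.67% of these genes higher and 0.981% lower. Of the 11 members tested 2 were called higher, and no member beyond these 2 had an unadjusted p under 0.05. For comparison, 21.5% of the 3058 genes had both double loss lists above both controls, and 0.85% were at 0% in each control and at 100% in each double loss list. The median difference over the 33 members of 21q22.1 was 0 points, as over the 16 of 21q22.3. Without double loss 1 the count of members called higher was 9, in a fit that called 13% of all genes tested higher. Without double loss 2 it was 4, in a fit that called 12.1% higher. In each of these fits every member tested was covered in the remaining double loss list.

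The 9 members under a region in only 1 double loss list differed by 50 points between the group means. With all libraries kept, limma's adjusted p was 0.589 for each, so none of these passed the test. In double loss 1 alone, regions held KRTAP20-3 and KRTAP21-2, high glycine-tyrosine genes. In double loss 2 alone, regions held the high glycine-tyrosine genes KRTAP6-1, KRTAP8-1, KRTAP20-1, KRTAP20-4 and KRTAP21-1 and the high sulfur genes KRTAP24-1 and KRTAP25-1. KRTAP6-1, KRTAP20-1 and KRTAP20-4 shared 1 region (chr21:30608001-30630000), as did KRTAP24-1 and KRTAP25-1 (chr21:30267001-30290000), so they are not independent. KRTAP21-2 and KRTAP21-1, which are neighbours, lay on either side of a boundary at position 30751000: the double loss 1 region ended there and the double loss 2 region began there.

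Windows around the members gave values between 0% and 100%. With 10 kb added on each side, KRTAP11-1 was covered to 0%, 17.1%, 100% and 100% in control 1, control 2, double loss 1 and double loss 2, and KRTAP19-8 to 70.5%, 22%, 75.4% and 80.3%. Thus the surroundings of KRTAP19-8 were already well covered in control 1, and its mean difference was 31.6 points, against 91.5 points for KRTAP11-1. In these windows neither passed limma's test (adjusted p = 0.595 and 0.121), and no gene of 3382 tested did, though 543 genes, 4 of them members, had an unadjusted p under 0.05. KRTAP21-2 was covered to 69.4% and 30.6% in the double loss lists and KRTAP21-1 to 29.3% and 70.7%, with 0% in both controls. KRTAP20-2 had 0% in the controls, 17.7% in double loss 1 and 23.5% in double loss 2.

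KRTAP7-1 (chr21:30829039-30829759), a high glycine-tyrosine gene, had a lower mean after double loss. Its 10 kb window was covered to 0% and 37.4% in the controls and 0% and 3.66% after double loss, a mean difference of -16.9 points that rests on control 2 alone. In all, 15 of 33 members of 21q22.1 had a window covered in at least 1 list. Of the 33, 5 had a higher window share in both double loss lists than in both controls, beside 22.7% of the 3382 genes with a covered window. With 50 kb on each side, 21 of 33 had a covered window and 14 of the 33 were higher, beside 24.2% of 4440 genes with a covered window. Members with no covered window could not be higher, and the shares over genes leave such genes out. Most members' windows were covered through the double loss lists, so nothing is read from these counts. The windows of neighbouring members overlap, so these counts rest on few separate regions.

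After the first members, KRTAP24-1 and KRTAP25-1, a long stretch of the cluster was outside the regions of all 4 lists. KRTAP13-1, KRTAP13-2, KRTAP13-3 and KRTAP13-4, KRTAP15-1 and KRTAP23-1 of the high sulfur group were at 0% in all 4 lists even with 50 kb on each side. The same held for KRTAP19-1 to KRTAP19-6 of the high glycine-tyrosine group. KRTAP13-1 lay 571, 435, 245 and 106 kb from the nearest region in control 1, control 2, double loss 1 and double loss 2. The median over the 33 members was 425, 271, 80.7 and 17.6 kb in the same order. Both double loss medians were thus below those of the controls. This did not hold for every member: KRTAP7-1 lay nearer to a region in control 2 than in either double loss list. Neighbouring members share their nearest regions, so the medians rest on few separate regions.

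In 10 kb steps, 34 of the 76 steps of 21q22.1 were covered in at least 1 list. The numbers covered were 6, 15, 25 and 27 in control 1, control 2, double loss 1 and double loss 2, and those covered over at least 50% of their length were 5, 11, 21 and 23. Of the 34, 7 had a higher share in both double loss lists than in both controls and 0 had a lower one. Over the genome 10.8% of 95092 covered steps were higher and 7.55% were lower. Without control 1 the count of higher steps was 9, without control 2 it was 15, without double loss 1 it was 16 and without double loss 2 it was 17. With a library left out the rule is easier to meet, and its share over the genome is not given here. All 17 steps of 21q22.3 were at 0% in every list.

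The 7 higher steps formed 3 runs. The run of 4 steps at chr21:30850001-30890000 holds KRTAP11-1 and had mean shares of 0%, 32.5%, 100% and 87.5% in control 1, control 2, double loss 1 and double loss 2. The 2 steps at chr21:30900001-30920000 hold no member and had 0%, 55%, 100% and 100%. The single step at chr21:30750001-30760000 holds KRTAP21-1 and had 0%, 0%, 10% and 90%, so the double loss libraries differed widely there. A further 15 steps were covered in 1 double loss list and no control, and no step was covered in the controls alone. The shares of these 2 patterns over the genome are not given here. Both double loss lists also covered more of the genome than both controls, so nothing is read from this contrast. Only 1 step, chr21:30870001-30880000, was empty in both controls and wholly covered in both double loss lists, as were 2.39% of covered steps over the genome.

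**Figure D4:**
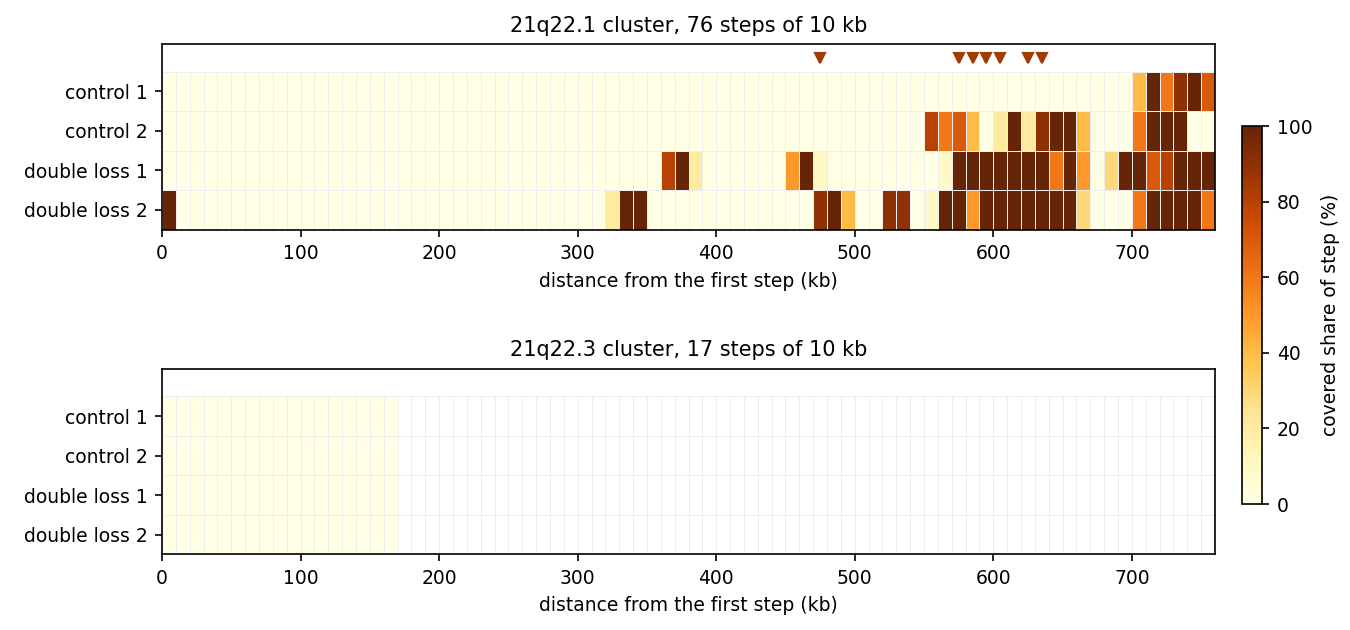
Covered share (%) of each 10 kb step of the 2 clusters, 1 row per library, by distance from the first step (kb). Colour runs from 0% (pale) to 100% (dark), blank marks positions beyond a cluster, and triangles mark the 7 steps higher in both double loss lists than in both controls. Covered steps lie mostly in the distal part of 21q22.1, and all 17 steps of 21q22.3 are at 0%.

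The regions of 21q22.1 varied in strength. By the authors' log2 fold per region, the median inside the span was 0.61 and 0.60 in the controls and 0.43 and 0.39 in the double loss lists, beside whole-list medians of 0.55, 0.60, 0.51 and 0.50. The medians thus lay at or above that of the list in the controls and below it in the double loss lists. The strongest regions stood at percentile 78.2 in control 1, 93.8 in control 2, 96.9 in double loss 1 and 62.2 in double loss 2, and those of the first 3 lists hold no member. The region over KRTAP11-1 held 845 LaminB1 and 600 control library reads in double loss 1 and 926 and 597 in double loss 2. Its log2 fold of 0.43 and 0.56 stood at percentile 31.5 and 62.2 of its list, with the authors' adjusted p of 2.93e-16 and 8.70e-28. The region over KRTAP19-8 held 458 and 360 reads in double loss 1 and 226 and 166 in double loss 2. Its log2 fold was 0.28 and 0.37, at percentile 8.90 and 21, with the authors' adjusted p of 2.91e-05 and 0.000123. KRTAP19-8 thus lay under weak regions of both lists.

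LaminB1 read density in the regions of the span was near equal in the 4 lists, at 11.2, 11.4, 11.7 and 11.7 reads per kb. Control library reads in the same regions numbered 6.07 and 6.15 per kb in the controls and 8.32 and 8.27 per kb after double loss. Over whole lists the LaminB1 densities were 12.4, 13.2, 13.4 and 13.4 per kb, and the control library densities 6.93, 6.97, 8.86 and 8.83. Where the 2 lists of a group had a region with identical edges, its control library count was identical too (105 of 105 such regions). For lists of different groups this was so in 3 of 154. The 2 groups thus had different control libraries, and control library and group cannot be told apart. The part of the control libraries in the differences between groups was not tested.

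**Figure D5:**
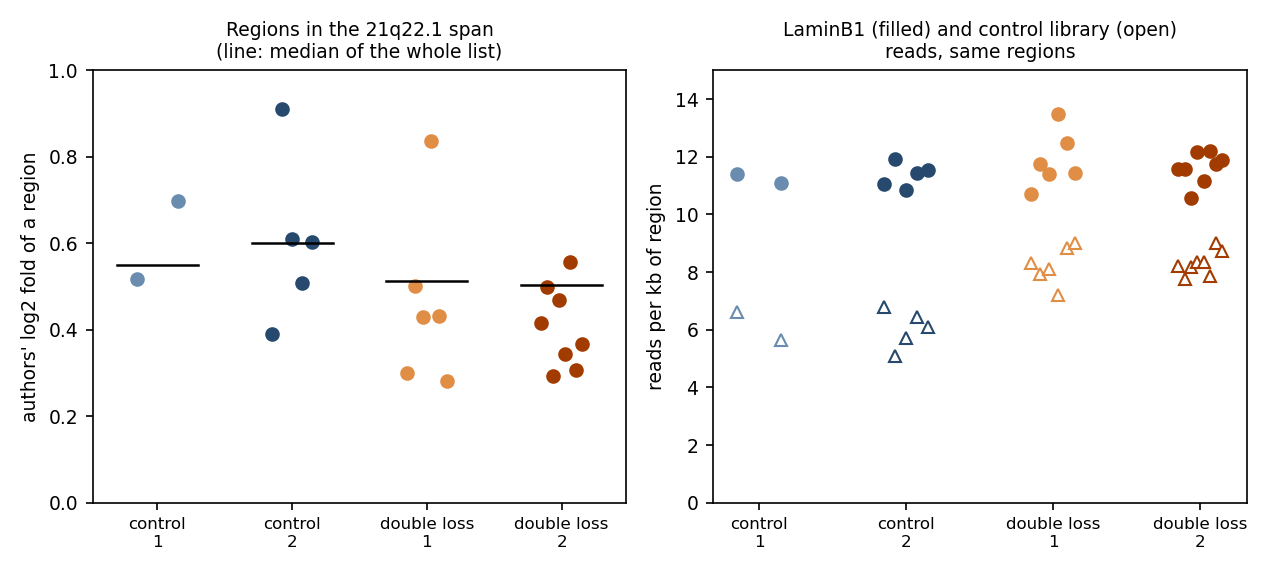
Left, the authors' log2 fold of each region in the 21q22.1 span, with a line at the median of the whole list. Right, LaminB1 reads (filled circles) and control library reads (open triangles) per kb of the same regions, by library. LaminB1 densities lie at similar levels in the 4 lists, while control library densities lie higher in the double loss lists.

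The 21q22.3 cluster lay far from any region. The last region before it ended 4.72 Mb away in control 1, 3.15 Mb in control 2, 3.51 Mb in double loss 1 and 3.47 Mb in double loss 2, and no list had a region after it. TSPEAR, which encloses the 16 members, was at 0%. So were AIRE, a regulator of self-antigen expression in the thymus, PFKL, TRPM2, CFAP410, LRRC3, UBE2G2, SUMO3, PTTG1IP, ITGB2 and SLX9, the 5 nearest genes on each side. Within a window of 2 Mb around each cluster, 21q22.1 had 5 protein-coding genes other than members and 21q22.3 had 26, so the clusters also differed in the density of other genes.

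Other genes of the hair shaft were mostly outside the regions. All 45 KRTAP genes on other chromosomes, 11 on chromosome 11 and 34 on chromosome 17, were at 0% in the 4 lists, so among 94 KRTAP genes regions were found only over members of 21q22.1. All 17 hair keratin genes, 6 on chromosome 12 and 11 on chromosome 17, were at 0% as well. Of 12 genes for hair shaft regulators and cross-linking enzymes, 2 were covered in any list, beside 15.3% of all protein-coding genes. LEF1 had 31.2% and 26.4% in the controls and 0% and 16.5% after double loss, and GATA3, a factor of the inner root sheath, had 0%, 0%, 0.663% and 17.4%. Neither passed limma's test (adjusted p = 0.589 for each) or had an unadjusted p under 0.05, and the other 10 were not tested. Of the 190 other protein-coding genes of chromosome 21, 20 were covered in at least 1 list. Both double loss lists were above both controls for 3 and below for 2. Over all protein-coding genes these numbers were 656 and 424 of the 3058 covered, and nothing is read from counts this small.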

How the data were processed

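LaminB1 CUT&RUN libraries of HCT116 cells, 2 per group, were analysed as called region lists. IgG libraries were not used here as samples. The submitters' processing notes name Bowtie2 2.3.4.3, Picard and the build hg38. Which caller made the regions is not given in the sources used here. Per the file headers, the lists give, on a 1 kb grid and per library, counts of LaminB1 and control library reads, not normalized. The deposited p-value and adjusted p-value were the authors', the latter all under 0.05. The deposited log2 fold equals the log2 ratio of the LaminB1 count to the control count, less a constant for each list (0.27, 0.32, 0.07 and 0.08), and the deposited score is 100 times it, as checked on the values. Folds were used only within a list.

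Gene positions, on chromosomes 1 to 22 and X, came from RefSeq GRCh38.p14, whose coordinates are those of hg38. Covered shares were computed with Python 3.11.15, numpy 2.4.6 and pandas 2.3.3. Genes covered in at least 1 list were compared over the whole table by limma 3.58.1 in R 4.3.3. The fit used arcsine square root shares (trended variance, Benjamini-Hochberg, threshold 0.05). It was checked on simulated shares that mostly lay between no and full coverage. That check does not cover genes wholly under or wholly outside a region, as the members were. Cluster shares were compared by exact two-sided permutation tests. Every member could be named, with the 5 nearest other genes on each side of a cluster. Members and lists were chosen with earlier results of these data known. Alternatives changed region strength, number, width and joining, step size, flanks, filter, transformation and replicate block, and left out each library. Joining regions under 10 kb apart and the 50 kb windows were added after values were seen. Replicate numbers were taken only as names.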

Additional observations from a re-analysis of the deposited data

How the results depend on the processing

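The 17.3 point difference of 21q22.1, and that between the clusters, ran from 13.2 to 21.4 points with 1 library left out and was 13 points with an equal number of regions per list, but both were 0.46 points when each list was limited to its upper 50% by log2 fold. In that setting double loss 1 lay below both controls, so the groups no longer separated. The cause was not tested. The 21q22.3 values stayed at 0 in all alternatives run. None of these could change them, as the nearest region of any list ended 3.15 Mb away.

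The count of higher steps (7) was 9 to 17 with 1 library left out, where the rule is easier to meet. It was 3 with the upper 50% of regions, 4 with regions under 10 kb apart joined, 11 with 5 kb steps and 4 with 20 kb steps. The count of members called higher by limma (2) was 2 to 9 with 1 library left out, 1 with an equal number of regions, 1 with regions under 10 kb apart joined, and 0 with the upper 50% of regions and with 10 kb flanks. In fits without 1 library, its group's lone sample is assumed to vary like the other group. KRTAP11-1 was still called with equal numbers (adjusted p = 0.0389) and KRTAP19-8 was not (adjusted p = 0.600). No difference between group means changed sign, for a cluster or for a member tested in the main fit. With the upper 50% of regions, however, double loss 1 lay below both controls in 21q22.1. Over all 3058 genes limma's 51 higher and 30 lower calls became 106 to 377 and 121 to 228 with 1 library left out, 26 and 21 with equal numbers, 65 and 54 with regions under 10 kb apart joined, and 0 and 0 with 10 kb flanks.

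The labels tie same-numbered libraries by a number only, and whether they were handled together is not known here. Their deviations from the group means correlated at -0.0016 over 95092 steps and -0.020 over 3058 genes, which does not settle this. With replicate number as a block the cluster difference was 17.3 points (exact sign-flip p = 0.5, the smallest 2 pairs allow), and limma called 0 members and 0 genes, with 328 genes at an unadjusted p under 0.05. The fit over all genes without the filter on coverage could not be fitted and was not run. Read depth enters through the region lists only; sequence outside regions has no counts here.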
